A study of Homo sapiens with 18 samples.

Results

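The DNA replication genes described here are 47 of the 14079 gene symbols in the deposited count table. They were chosen by name, and all 47 symbols have a row. Of these, 46 passed the filter on low counts and were tested; the exception was CCNE1, a cyclin with 76 tags in the 18 libraries together. The assay was CAGE (cap analysis of gene expression), in which a short tag is read from each capped 5′ RNA end, so that tags at a gene count the RNA molecules that start there.

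DNA is copied from origins at which the origin recognition complex, CDC6 and CDT1 load a ring of 6 MCM proteins in G1 phase. Cyclin-dependent kinases, cyclin E complexes among them, then let CDC45 and the GINS complex join the ring to form the moving helicase, and polymerases, a sliding clamp and ligases complete the new strands. Transcription of most of these genes rises late in G1 through E2F factors, so their RNA is abundant in dividing cells, leukaemia lines included.

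The groups were AML3 cells with OTX015, with JQ1 or with vehicle and AML2 cells with OTX015, with JQ1 or with vehicle, with 3 libraries in each of the 6 groups. AML3 and AML2 stand for the human acute myeloid leukaemia lines OCI-AML3 and OCI-AML2, so each set of libraries comes from a single line, and the vehicle was DMSO. As background, OCI-AML3 carries a mutated NPM1 gene, whose protein moves to the cytoplasm, and OCI-AML2 does not; the labels give no genotype. JQ1 and OTX015 share a thienotriazolodiazepine core and bind the acetyl-lysine pockets of BET proteins, readers of acetylated histones; JQ1 carries a tert-butyl ester on its side chain and OTX015 a hydroxyphenyl amide. The labels give neither doses nor treatment times. Nothing in the labels says that the libraries of a group came from separate cultures, so the p-values measure the spread between these libraries.

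Levels are given as CPM, counts per 1000000 tags after scaling by the trimmed mean of M values (TMM), and changes as log2 fold changes ± SE, compound over vehicle, from edgeR's quasi-likelihood test. A gene is said to have risen or fallen where the Benjamini-Hochberg adjusted p over all 10031 genes tested was under 0.05. The libraries held 303883 to 2163106 tags. Every replicate 3 library was the shallowest of its group, with 303883 to 957036 tags. In AML3 and in treated AML2 cells it also differed more from replicates 1 and 2 than these did from each other. Counts of genes are therefore also given for replicates 1 and 2 alone. Of 10 myeloid markers 9 were in the table, with summed levels of 532 to 682 CPM with OTX015, 552 to 714 CPM with JQ1 and 4328 to 5748 CPM with vehicle in AML3, and of 2122 to 2313, 2665 to 2784 and 3284 to 4675 CPM in AML2 in the same order. None of the defining T-cell, erythroid and epithelial markers had a row in the table. Of 5 B-cell markers 2 had one and summed to at most 2.90 CPM, and of 5 fibroblast markers 1 did, at no more than 5.46 CPM. The part of the myeloid marker change in the results was not tested. In bulk RNA, fewer cycling cells and less RNA of these genes per cell cannot be told apart.

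Stretches upstream of 4 members' RefSeq start sites are shown as examples of the annotated promoters of these genes (GRCh38.p14). The measured start sites carry hg19 coordinates and were not matched to them. The MCM6 and RRM1 stretches end at the base before the start, and those of POLE and E2F1 end 18 and 20 bases before it, where an annotated UTR begins. MCM6 and RRM1 fell with both compounds in both lines, whereas POLE and E2F1 passed the test in none of the 4 comparisons with vehicle. Capitals mark E2F-type letters (TTTGGCGC, TTTCCCGC, TTTCGCGC or TTTGCCGC) and CCAAT, each on either strand.
MCM6 (chr2:135876444-135876593, minus strand): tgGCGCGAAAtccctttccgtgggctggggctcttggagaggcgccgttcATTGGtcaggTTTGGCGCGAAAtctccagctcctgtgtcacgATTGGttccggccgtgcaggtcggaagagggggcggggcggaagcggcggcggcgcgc
RRM1 (chr11:4094535-4094684, plus strand): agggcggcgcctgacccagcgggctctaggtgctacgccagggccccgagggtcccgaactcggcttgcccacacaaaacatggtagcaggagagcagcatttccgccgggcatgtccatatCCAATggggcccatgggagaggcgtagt
POLE (chr12:132687360-132687492, minus strand): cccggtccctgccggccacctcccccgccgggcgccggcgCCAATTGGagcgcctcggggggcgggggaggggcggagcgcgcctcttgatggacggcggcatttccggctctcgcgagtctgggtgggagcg
E2F1 (chr20:33686405-33686535, minus strand): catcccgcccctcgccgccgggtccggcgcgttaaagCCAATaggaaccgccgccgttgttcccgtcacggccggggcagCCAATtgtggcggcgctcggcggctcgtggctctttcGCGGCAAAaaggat
The MCM6 stretch holds 3 E2F-type matches, of which 2 overlap, and 2 CCAAT matches. The RRM1 stretch has 1 CCAAT match, the POLE stretch 2 that overlap, and the E2F1 stretch 1 E2F-type and 2 CCAAT matches. Further E2F-type letters lie across the ends of 3 of these stretches: in the whole windows, 250 bases before to 50 after the start, there are 4 such matches for MCM6, 2 for E2F1, 1 for POLE and 0 for RRM1.

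Both compounds lowered most of the replication genes, and the median fall was larger in AML3. With OTX015 in AML3, 41 of 46 members fell and 1 rose, where 26.1% of all genes tested fell and 28.8% rose. With JQ1 in AML3, 40 fell and none rose, against 24.1% and 26.8% of all genes. In AML2, 32 fell and 2 rose with OTX015 (all genes: 19.9% and 20.5%), and 25 fell and 2 rose with JQ1 (17.4% and 17.2%). The median member changed by -1.95 with OTX015 and -1.56 with JQ1 in AML3, and by -0.93 and -0.72 in AML2 on the log2 scale, while the median of all genes lay between 0 and 0.04. The comparisons within a line share their vehicle libraries.

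Summed over the 47 members, the 3 libraries held 1099, 1129 and 1047 CPM with OTX015 and 1473, 1509 and 1049.8 CPM with JQ1 in AML3, against 3591, 3450.4 and 3944 CPM with vehicle. In AML2 the sums were 2846, 2946 and 2234 CPM with OTX015 and 3142, 2995 and 2583 CPM with JQ1, against 4074, 4011 and 4429 CPM with vehicle. Treated and vehicle libraries did not overlap in either line. As a share of all gene tags, with no TMM scaling, the members held 0.139% ± 0.0181 with OTX015, 0.160% ± 0.00516 with JQ1 and 0.327% ± 0.0118 with vehicle in AML3 (SD, n = 3 each). The shares in AML2 were 0.249% ± 0.0139, 0.266% ± 0.0101 and 0.338% ± 0.0257 in the same order.

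Across the members, 24 fell in all 4 comparisons with vehicle and 40 fell with both compounds in AML3. For all genes tested, counts over several comparisons together were not made. CCNE2 rose in 3 of the 4 comparisons, RRM2 rose with both compounds in AML2, and POLE, PRIM2 and E2F1 passed in none. With replicates 1 and 2 alone, 42 members fell with OTX015 and 39 with JQ1 in AML3, and 29 and 25 in AML2. Of all 10252 genes tested in that setting, 2804 and 2503 fell in AML3 and 2217 and 1945 in AML2. When libraries were scaled by total tags, the median of all genes moved to 0.51 with OTX015 and 0.44 with JQ1 in AML3 and to 0.21 and 0.16 in AML2. Relative to that shift the median member changed by -1.996, -1.64, -0.96 and -0.73, and 36, 34, 23 and 19 members fell. The calls over all genes then split into 4029 higher and 1512 lower with OTX015 and 3635 and 1370 with JQ1 in AML3, against 2886 and 2619 and 2685 and 2414 with TMM; in AML2 they split into 2262 and 1441 with OTX015 and 1881 and 1262 with JQ1, against 2053 and 1993 and 1727 and 1742.

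**Figure D1:**
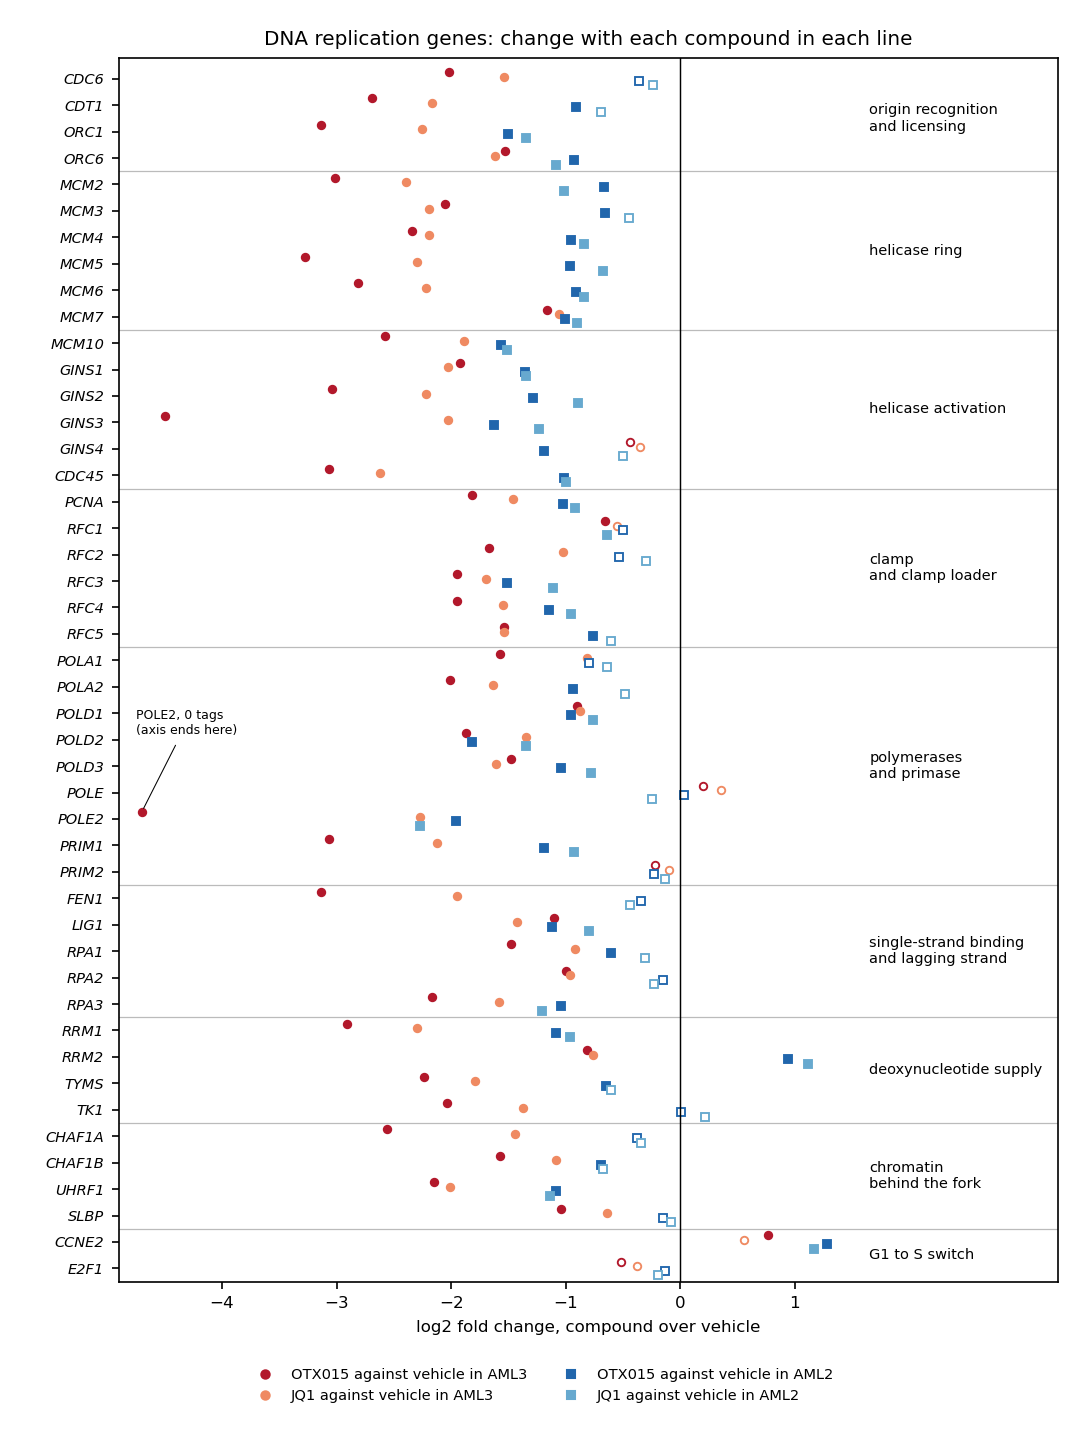
Log2 fold change (x axis, compound over vehicle) of the 46 members tested, in rows grouped by role, for OTX015 and JQ1 in AML3 (circles) and AML2 (squares); filled symbols passed the test. AML3 circles lie left of AML2 squares in most rows. CCNE2 lies right of 0 in both lines and RRM2 in AML2, and POLE, PRIM2 and E2F1 have no filled symbol. POLE2 with OTX015 in AML3, with 0 tags, is drawn at the end of the axis.

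All 6 subunits of the MCM ring, the motor that unwinds DNA at the fork, fell with both compounds in AML3. Their log2 changes ran from -3.27 to -1.16 with OTX015 and from -2.39 to -1.06 with JQ1 in AML3. In AML2 all 6 fell with OTX015 (-1.01 to -0.66) and 5 fell with JQ1; MCM3 changed by -0.45 ± 0.21 and did not pass. MCM5 had 13.1, 12.05 and 12.9 CPM with OTX015 and 22.2, 30.6 and 21.6 CPM with JQ1, against 123, 96.04 and 155 CPM with vehicle in AML3. In AML2 it had 70.1, 46.4 and 44.2 CPM with OTX015 and 62.8, 67.9 and 67.03 CPM with JQ1, against 119, 91.7 and 107 CPM with vehicle. Every treated MCM5 library was below every vehicle library of its line, and the AML3 libraries with OTX015 were also below those with JQ1. The MCM5 change was -3.27 ± 0.27 with OTX015 (adjusted p = 1.40e-09) and -2.29 ± 0.24 with JQ1 in AML3, and -0.96 ± 0.22 and -0.68 ± 0.21 in AML2. The JQ1 call in AML2 was lost under total tag scaling (adjusted p = 0.0775), without vehicle replicate 1 (0.0651) and without JQ1 replicate 1 (0.0543).

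MCM2 had 10.9, 13.1 and 10.8 CPM with OTX015 and 21.3, 16.9 and 14.4 CPM with JQ1, against 98.5, 91.7 and 96.4 CPM with vehicle in AML3, changes of -3.01 ± 0.32 and -2.39 ± 0.29. Its AML2 libraries held 102, 63.9 and 44.2 CPM with OTX015 and 58.2, 73.2 and 31.8 CPM with JQ1, against 107, 113 and 123 CPM with vehicle, changes of -0.67 ± 0.24 and -1.01 ± 0.24. Treated and vehicle libraries of MCM2 did not overlap in either line, though OTX015 replicate 1 in AML2 came close. The OTX015 call in AML2 was lost without vehicle replicate 2 or 3 or OTX015 replicate 2 or 3 (adjusted p 0.0592 to 0.143), under total tag scaling (0.114) or upper quartile scaling (0.0638) and with replicates 1 and 2 alone (0.105).

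MCM3 had 25.1, 42.7 and 25.8 CPM with OTX015 and 32.01, 24.3 and 30.7 CPM with JQ1, against 112, 158 and 128 CPM with vehicle in AML3. Its levels in AML2 were 121, 113 and 131 CPM with OTX015 and 140.4, 164 and 111 CPM with JQ1, against 173, 204 and 195 CPM with vehicle. The groups did not overlap, and the change in AML3 was -2.05 ± 0.25 and -2.19 ± 0.25; that with OTX015 in AML2, -0.66 ± 0.22, was lost without vehicle replicate 2 or OTX015 replicate 1 or 2 (adjusted p 0.0518 to 0.0659) and under total tag scaling (0.112). MCM6 held 36.04, 24.1 and 19.4 CPM with OTX015 and 42.7, 48.6 and 30.7 CPM with JQ1, against 202, 206 and 170.2 CPM with vehicle in AML3. Its AML2 libraries held 96.9, 81.3 and 73.7 CPM with OTX015 and 99.3, 94.3 and 68.8 CPM with JQ1, against 151, 155 and 171 CPM with vehicle. MCM6 treated libraries were again all below vehicle, with changes of -2.81 ± 0.25 and -2.22 ± 0.23 in AML3 and -0.91 ± 0.22 and -0.84 ± 0.21 in AML2. MCM4 fell by amounts like these in every comparison (-2.34 and -2.19 in AML3, -0.96 and -0.84 in AML2). MCM7, the remaining subunit, changed by -1.16 ± 0.22 and -1.06 ± 0.21 in AML3, the smallest falls of the ring in that line, and is taken up again by start site.

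**Figure D2:**
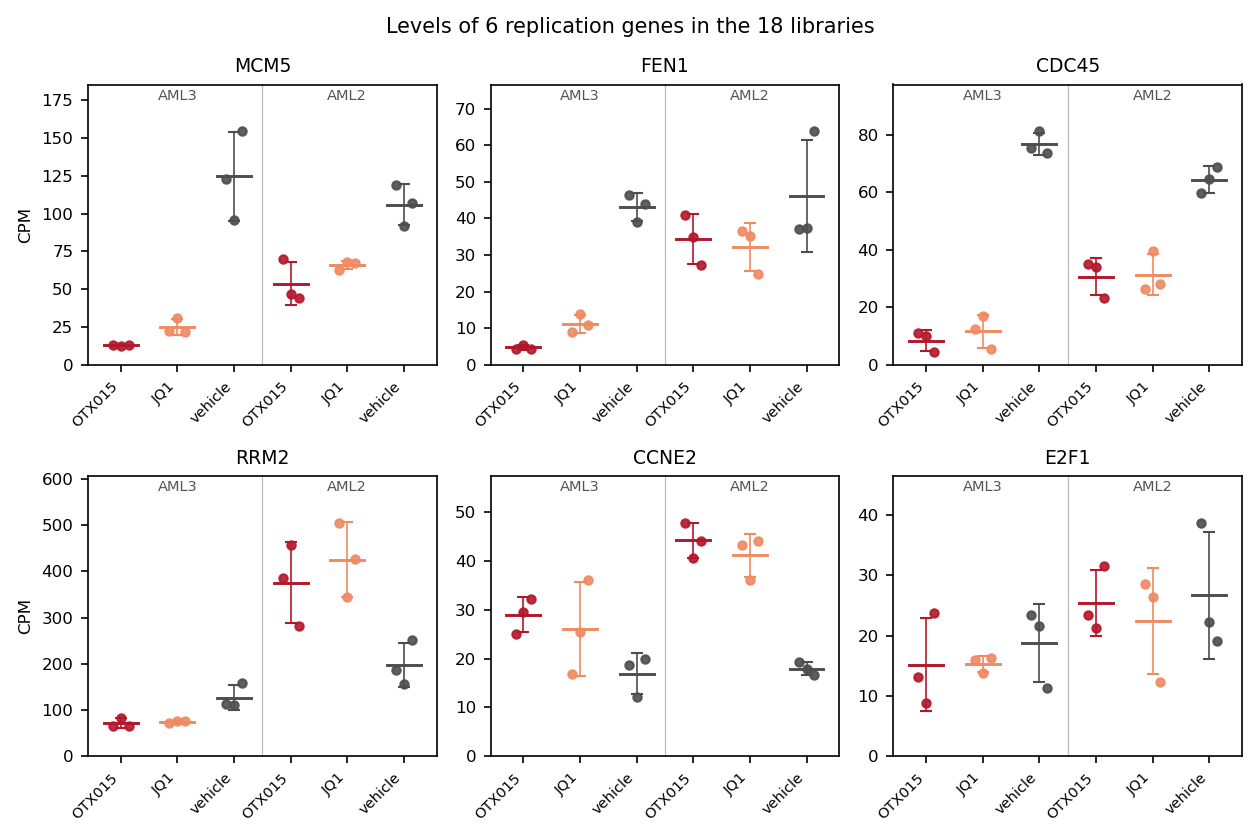
CPM (y axis) of MCM5, FEN1, CDC45, RRM2, CCNE2 and E2F1 in each of the 18 libraries, by group, with the mean (line) and SD (bar) of 3 libraries. MCM5 and CDC45 are below vehicle with both compounds in both lines, FEN1 is far below vehicle in AML3, RRM2 moves in opposite directions in the 2 lines, CCNE2 is higher and E2F1 overlaps.

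The 4 licensing factors, which mark and load origins, fell with both compounds in AML3. In AML2, 3 fell with OTX015 and 2 with JQ1; CDC6, the ATPase that helps load the ring, did not pass with either (-0.36 ± 0.29 and -0.24 ± 0.28). ORC1, the largest origin recognition subunit, had 1.09, 2.19 and 6.46 CPM with OTX015 and 2.67, 7.40 and 5.41 CPM with JQ1, against 25.2, 19.03 and 29.8 CPM with vehicle in AML3. In AML2 ORC1 had 14.01, 9.67 and 8.42 CPM with OTX015 and 18.3, 12.3 and 3.53 CPM with JQ1, against 29.5, 33.1 and 30.7 CPM with vehicle. All treated libraries were below all vehicle libraries of their line, and ORC1 changed by -3.14 ± 0.51 and -2.26 ± 0.43 in AML3. It also fell in AML2, with a log2 change of -1.35 ± 0.35 with JQ1 and a 95% interval of -2.26 to -0.74 with OTX015. CDT1, the loading factor that is destroyed once S phase starts, had 25.1, 21.9 and 12.9 CPM with OTX015 and 25.8, 34.9 and 30.7 CPM with JQ1, against 137, 140.2 and 130.5 CPM with vehicle in AML3. CDT1 had 92.2, 74.5 and 21.1 CPM with OTX015 and 90.2, 91.7 and 44.1 CPM with JQ1, against 131, 135 and 106 CPM with vehicle in AML2. Its groups did not overlap in either line; it changed by -2.69 ± 0.34 and -2.16 ± 0.32 in AML3 and by -0.91 ± 0.29 with OTX015 in AML2, a call lost without OTX015 replicate 3 (adjusted p = 0.0779). With JQ1 in AML2 the change was -0.69 ± 0.28 (adjusted p = 0.0617), and it passed with replicates 1 and 2 alone (0.0270).

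Among the 6 genes that turn the loaded ring into a moving helicase, 5 fell with each compound in AML3, and 6 with OTX015 and 5 with JQ1 in AML2. GINS4 was the member that did not fall in AML3 (-0.44 ± 0.27 and -0.35 ± 0.26) although it fell with OTX015 in AML2 (-1.19 ± 0.27). CDC45, the helicase cofactor, had 10.9, 9.86 and 4.31 CPM with OTX015 and 12.4, 16.9 and 5.41 CPM with JQ1, against 75.6, 81.3 and 73.7 CPM with vehicle in AML3. The AML2 libraries held 35.03, 33.9 and 23.2 CPM with OTX015 and 26.3, 39.7 and 28.2 CPM with JQ1, against 59.8, 64.5 and 69.00 CPM with vehicle. No treated CDC45 library reached a vehicle library, with changes of -3.07 ± 0.30 (adjusted p = 1.28e-08) and -2.62 ± 0.27 in AML3 and -1.02 ± 0.24 with OTX015 in AML2, where the 95% interval with JQ1 was -1.49 to -0.51. GINS3, a subunit of the GINS complex, had 0, 0 and 2.15 CPM with OTX015 and 4.45, 1.06 and 3.61 CPM with JQ1, against 12.3, 11.2 and 15.6 CPM with vehicle in AML3. That is 1 tag with OTX015 against 45 with vehicle in AML3, a ratio 28.9-fold lower with a 95% counting interval of 4.93 to 1168. With JQ1 in AML3 it changed by -2.02 ± 0.52. In AML2 it had 2.34, 4.84 and 4.21 CPM with OTX015 and 2.28, 7.05 and 5.29 CPM with JQ1, against 11.8, 10.8 and 14.1 CPM with vehicle, with no overlap between treated and vehicle libraries. The AML2 calls rest on few tags: that with JQ1 (-1.24 ± 0.48) was lost without any 1 of 11 libraries (AML2 JQ1 replicates 1 and 3 and every vehicle or AML2 OTX015 library; adjusted p 0.0504 to 0.211) and under total tag scaling, upper quartile scaling, no filter, DESeq2 or replicates 1 and 2 alone (0.0526 to 0.1101), and that with OTX015 (-1.62 ± 0.52) without OTX015 replicate 1 (0.0820).

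PCNA, the sliding clamp, and the 5 subunits of its loader RFC all fell with OTX015 in AML3, and 5 of these 6 genes fell with JQ1. In AML2, 4 of the 6 fell with each compound. RFC3 had 7.65, 12.05 and 10.8 CPM with OTX015 and 12.4, 15.9 and 5.41 CPM with JQ1, against 44.6, 37.2 and 34.03 CPM with vehicle in AML3. In AML2, RFC3 had 19.8, 22.3 and 10.5 CPM with OTX015 and 27.4, 21.2 and 26.5 CPM with JQ1, against 51.4, 55.3 and 53.7 CPM with vehicle. The RFC3 groups did not overlap, and its changes were -1.95 ± 0.31 and -1.70 ± 0.29 in AML3 and -1.51 ± 0.27 and -1.11 ± 0.25 in AML2. RFC4 had 15.3, 12.05 and 10.8 CPM with OTX015 and 19.6, 20.1 and 9.02 CPM with JQ1, against 59.8, 44.1 and 45.4 CPM with vehicle in AML3. RFC4 in AML2 had 46.7, 64.8 and 42.1 CPM with OTX015 and 44.5, 84.6 and 45.9 CPM with JQ1, against 131, 119 and 95.8 CPM with vehicle. Its treated libraries were all below vehicle, with changes of -1.95 ± 0.33 and -1.55 ± 0.30 in AML3 and -1.14 ± 0.25 and -0.95 ± 0.24 in AML2. PCNA changed by -1.82 and -1.46 in AML3 and -1.02 and -0.92 in AML2. RFC1, the large subunit, had the smallest changes of this group in AML3 (-0.66, passing, and -0.55, not passing).

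Of the 9 polymerase and primase genes, 7 fell with each compound in AML3, and 6 with OTX015 and 5 with JQ1 in AML2. Polymerase epsilon, which copies the leading strand, is represented by 2 subunits. POLE2, the accessory one, had 0, 0 and 0 CPM with OTX015 and 1.78, 3.17 and 0 CPM with JQ1, against 7.62, 12.98 and 8.51 CPM with vehicle in AML3. With OTX015 in AML3 there were 0 POLE2 tags against 34 with vehicle, at least 7.29-fold lower with a floor of 3 tags over the group; with JQ1 in AML3 it changed by -2.27 ± 0.68. In AML2 POLE2 had 2.34, 3.87 and 4.21 CPM with OTX015 and 5.71, 1.76 and 0 CPM with JQ1, against 8.43, 14.1 and 19.2 CPM with vehicle, changes of -1.96 ± 0.59 and -2.27 ± 0.60; the first was lost without OTX015 replicate 1 (adjusted p = 0.0567). POLE, the catalytic subunit, averaged 40.5 ± 19.3 CPM with OTX015, 44.2 ± 18.7 CPM with JQ1 and 32.7 ± 2.45 CPM with vehicle in AML3 and 42.4 ± 8.95 CPM with OTX015, 34.5 ± 3.73 CPM with JQ1 and 40.8 ± 5.58 CPM with vehicle in AML2 (SD, n = 3 each). Its groups overlapped, and its changes ran from -0.24 to 0.36, none past the threshold.

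PRIM1, the catalytic primase subunit that lays down RNA primers, had 6.55, 7.67 and 12.9 CPM with OTX015 and 17.8, 16.9 and 12.6 CPM with JQ1, against 68.02, 61.4 and 86.5 CPM with vehicle in AML3. In AML2 PRIM1 had 23.4, 35.8 and 21.1 CPM with OTX015 and 37.7, 36.1 and 22.9 CPM with JQ1, against 75.8, 64.5 and 47.3 CPM with vehicle. It did not overlap with vehicle in either line and changed by -3.06 ± 0.32 and -2.12 ± 0.27 in AML3 and -1.19 ± 0.25 and -0.93 ± 0.24 in AML2. PRIM2, its partner, averaged 17.7 ± 6.43 CPM with OTX015, 18.8 ± 2.52 CPM with JQ1 and 19.3 ± 3.21 CPM with vehicle in AML3 and 26.03 ± 4.34 CPM with OTX015, 28.3 ± 7.21 CPM with JQ1 and 30.6 ± 5.75 CPM with vehicle in AML2 (SD, n = 3 each). Its changes ran from -0.23 to -0.10 and its groups overlapped; a near-identical pseudogene, PRIM2BP, could take or lend tags, so its values are uncertain. POLD2, an accessory subunit of the lagging-strand polymerase delta, had 20.8, 24.1 and 19.4 CPM with OTX015 and 37.3, 32.8 and 19.8 CPM with JQ1, against 86.2, 71.8 and 80.8 CPM with vehicle in AML3. Its AML2 libraries had 40.9, 47.4 and 29.5 CPM with OTX015 and 50.2, 68.8 and 45.9 CPM with JQ1, against 152, 152 and 123 CPM with vehicle. Treated and vehicle libraries of POLD2 did not overlap in either line, with changes of -1.87 ± 0.25 and -1.35 ± 0.23 in AML3 and -1.82 ± 0.22 and -1.35 ± 0.21 in AML2.

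The 5 genes for single-strand binding and lagging-strand joining all fell with both compounds in AML3; 3 fell with OTX015 and 2 with JQ1 in AML2. FEN1, the nuclease that trims the flap from Okazaki fragments, had 4.37, 5.48 and 4.31 CPM with OTX015 and 8.89, 13.7 and 10.8 CPM with JQ1, against 46.3, 38.9 and 43.96 CPM with vehicle in AML3. Levels in AML2 were 40.9, 34.8 and 27.4 CPM with OTX015 and 36.5, 35.3 and 24.7 CPM with JQ1, against 37.1, 37.4 and 63.9 CPM with vehicle. The AML3 groups were far apart, with changes of -3.14 ± 0.36 (adjusted p = 1.39e-07) and -1.95 ± 0.29. The AML2 changes of -0.35 ± 0.25 and -0.44 ± 0.25 did not pass, and OTX015 libraries overlapped with vehicle. RPA3, the small subunit of the single-strand binding complex, had 29.5, 36.1 and 21.5 CPM with OTX015 and 48.9, 60.2 and 19.8 CPM with JQ1, against 133, 133 and 140.4 CPM with vehicle in AML3. RPA3 had 50.2, 86.1 and 42.1 CPM with OTX015 and 57.1, 57.3 and 49.4 CPM with JQ1, against 149, 119 and 112 CPM with vehicle in AML2. All treated RPA3 libraries were below vehicle, and it changed by -2.17 ± 0.29 and -1.58 ± 0.27 in AML3 and -1.04 ± 0.26 and -1.21 ± 0.26 in AML2. LIG1, the ligase that seals the fragments, fell in every comparison (-1.10 and -1.43 in AML3, -1.12 and -0.80 in AML2).

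All 4 deoxynucleotide supply genes fell with both compounds in AML3, whereas in AML2 the 2 subunits of ribonucleotide reductase, which makes deoxynucleotides, moved in opposite directions. RRM2, the small subunit, had 64.4, 83.2 and 64.6 CPM with OTX015 and 72.02, 75.03 and 75.8 CPM with JQ1, against 112, 109.9 and 157 CPM with vehicle in AML3. In AML2 RRM2 had 386, 457 and 282 CPM with OTX015 and 506, 344 and 427 CPM with JQ1, against 186, 155 and 250.4 CPM with vehicle. Treated RRM2 libraries were all below vehicle in AML3 and all above it in AML2. The change was -0.82 ± 0.27 and -0.76 ± 0.26 in AML3 (adjusted p = 0.0118 and 0.0191) and 0.94 ± 0.25 and 1.12 ± 0.25 in AML2 (adjusted p = 0.00358 and 0.00103). The fall in AML3 was lost under total tag scaling (-0.32 with OTX015, adjusted p = 0.274; -0.33 with JQ1, 0.260), without vehicle replicate 3 (-0.65, 0.0658; -0.59, 0.0955) and, with JQ1, without JQ1 replicate 1 (0.0536).

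RRM1, the large subunit, had 10.9, 7.67 and 8.61 CPM with OTX015 and 14.2, 14.8 and 12.6 CPM with JQ1, against 65.7, 71.8 and 72.3 CPM with vehicle in AML3. In AML2 it had 36.2, 43.5 and 14.7 CPM with OTX015 and 31.96, 33.5 and 47.6 CPM with JQ1, against 75.00, 74.9 and 63.9 CPM with vehicle. RRM1 was below vehicle in every treated library, with changes of -2.91 ± 0.31 and -2.30 ± 0.27 in AML3 and -1.08 ± 0.24 and -0.96 ± 0.23 in AML2. TYMS, thymidylate synthase, had 30.6, 36.1 and 32.3 CPM with OTX015 and 51.6, 44.4 and 37.9 CPM with JQ1, against 140.1, 112 and 223 CPM with vehicle in AML3. TYMS had 142, 156 and 137 CPM with OTX015 and 155, 142 and 153 CPM with JQ1, against 244, 138 and 308 CPM with vehicle in AML2, where the groups overlapped. It fell, with changes of -2.24 ± 0.30 and -1.79 ± 0.28 in AML3. The OTX015 call in AML2 (-0.65 ± 0.26, adjusted p = 0.0457) lay just under the threshold: it was lost with replicates 1 and 2 alone (0.227), under total tag scaling (0.161) or upper quartile scaling (0.0920), with the 2 groups fitted alone (0.0655) and without any 1 of 13 libraries, AML2 vehicle replicates 1 and 3, the 6 treated AML2 libraries, AML3 vehicle replicate 1 and replicates 1 and 2 of AML3 with each compound (0.0509 to 0.261). TK1, the thymidine salvage kinase, had 36.04, 48.2 and 23.7 CPM with OTX015 and 64.02, 75.03 and 34.3 CPM with JQ1, against 138, 153 and 174 CPM with vehicle in AML3. TK1 had 64.2, 75.5 and 37.9 CPM with OTX015 and 100.4, 73.2 and 33.5 CPM with JQ1, against 64.9, 55.3 and 63.9 CPM with vehicle in AML2. It fell in AML3 (-2.04 ± 0.31 and -1.37 ± 0.29) and overlapped with vehicle in AML2 (0.01 ± 0.30 and 0.22 ± 0.29), where it passed as higher with JQ1 on replicates 1 and 2 alone (0.58, adjusted p = 0.0224).

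The 4 genes that rebuild or mark chromatin behind the fork, with SLBP for histone mRNA, fell with both compounds in AML3, and 2 fell with OTX015 and 1 with JQ1 in AML2. CHAF1A, the large subunit of chromatin assembly factor 1, had 5.46, 10.95 and 6.46 CPM with OTX015 and 17.8, 17.97 and 14.4 CPM with JQ1, against 42.2, 45.9 and 53.9 CPM with vehicle in AML3. In AML2, CHAF1A had 31.5, 29.02 and 23.2 CPM with OTX015 and 33.1, 29.97 and 22.9 CPM with JQ1, against 34.5, 39.1 and 37.1 CPM with vehicle. It fell in AML3, with changes of -2.56 ± 0.29 and -1.45 ± 0.25; its AML2 libraries were all below vehicle but the changes of -0.38 ± 0.24 and -0.34 ± 0.23 did not pass. UHRF1, which recruits the maintenance DNA methyltransferase to new DNA, had 12.01, 15.3 and 17.2 CPM with OTX015 and 17.8, 14.8 and 14.4 CPM with JQ1, against 60.4, 64.9 and 69.5 CPM with vehicle in AML3. UHRF1 had 45.5, 54.2 and 46.3 CPM with OTX015 and 45.7, 59.9 and 31.8 CPM with JQ1, against 83.4, 110.1 and 120.1 CPM with vehicle in AML2. It fell without overlap in both lines, with changes of -2.14 ± 0.27 and -2.01 ± 0.26 in AML3 and -1.08 ± 0.21 and -1.14 ± 0.21 in AML2.

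Of the genes of the switch from G1 to S phase only CCNE2 and E2F1 were tested, and neither fell in the fit on all replicates. CCNE2, a cyclin E, had 25.1, 29.6 and 32.3 CPM with OTX015 and 16.9, 25.4 and 36.1 CPM with JQ1, against 18.8, 12.1 and 19.9 CPM with vehicle in AML3. In AML2 CCNE2 had 47.9, 40.6 and 44.2 CPM with OTX015 and 43.4, 36.1 and 44.1 CPM with JQ1, against 19.4, 17.9 and 16.6 CPM with vehicle. The AML2 groups did not overlap, and CCNE2 rose by 1.28 ± 0.26 with OTX015 (adjusted p = 0.000321) and 1.17 ± 0.26 with JQ1. In AML3 it rose with OTX015 (0.76 ± 0.28, adjusted p = 0.0246), a call lost without vehicle replicate 2 (0.128), OTX015 replicate 2 (0.0724) or OTX015 replicate 3 (0.0628). With JQ1 in AML3 its libraries overlapped with vehicle and the change of 0.56 ± 0.28 did not pass, though it did under total tag scaling (0.99, adjusted p = 0.0192) and without JQ1 replicate 1 (0.81, 0.0287). E2F1, a transcription factor that drives many of these genes, averaged 15.2 ± 7.68 CPM with OTX015, 15.3 ± 1.38 CPM with JQ1 and 18.8 ± 6.53 CPM with vehicle in AML3 and 25.4 ± 5.45 CPM with OTX015, 22.4 ± 8.80 CPM with JQ1 and 26.7 ± 10.5 CPM with vehicle in AML2 (SD, n = 3 each). The groups overlapped and its changes ran from -0.51 to -0.13. In AML3 its replicate 3 library was the highest with OTX015 and the lowest with vehicle, and on replicates 1 and 2 alone E2F1 fell with OTX015 in AML3 (-1.05, adjusted p = 0.0142). CCNE1 stayed under the filter, with mean levels of 3.09 to 6.81 CPM over the 6 groups.

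The log2 change in AML3 minus that in AML2 was below 0 for 41 of 46 members with each compound. These include RRM2 and CCNE2, which rose in AML2. The median of this difference was -1.04 with OTX015 and -0.73 with JQ1 over the members, against 0.02 and 0.03 over all genes tested. The share of all genes below 0 is not given here. The difference itself, tested as an interaction, passed for 16 members with OTX015 and 12 with JQ1, all lower in AML3, where 4.81% and 3.92% of all genes tested were lower. Among the members that passed with OTX015, FEN1 had the largest difference, -2.79 ± 0.45 (adjusted p = 0.0002), followed by MCM2 at -2.34 ± 0.41 (0.000474) and MCM5 at -2.31 ± 0.36 (0.000118). The values of POLE2 and GINS3 were lower still but rest on 0 and 1 tags with OTX015 in AML3 and did not pass. With JQ1, RRM2 led at -1.87 ± 0.36 (0.00139), then MCM3 at -1.74 ± 0.33 (0.00106), CDC45 at -1.62 ± 0.37 (0.00671) and MCM5 at -1.62 ± 0.32 (0.00191). By role, 5 of the 6 ring subunits and all 4 deoxynucleotide supply genes differed with OTX015, and 4 and 3 of them with JQ1. No gene of the clamp and its loader did with either, and 1 of the 9 polymerase and primase genes, PRIM1, did with OTX015 (-1.88 ± 0.43). For MCM7 counted as a gene the difference was -0.15 ± 0.31 with OTX015 and -0.15 ± 0.30 with JQ1 and did not pass.

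With replicates 1 and 2 alone, 25 members differed between the lines with OTX015 and 17 with JQ1, all lower in AML3. Calls rose over all genes too: 918 and 792 of 10252 genes were lower, against 482 and 393 of 10031 with all replicates. The JQ1 count of members was 6 under total tag scaling, 6 without AML2 JQ1 replicate 2, and 7 without AML2 JQ1 replicate 1 or AML2 vehicle replicate 2. Total tag scaling moved the median JQ1 difference of all genes from 0.03 to 0.27. Of all calls 54.8% were then higher, against 43.5% with TMM. Relative to all genes the median member differed by -0.78, against -0.76 with TMM. Counts over all genes with a library left out are not given here. With JQ1 the call of CHAF1A was lost without any vehicle or AML3 JQ1 library, or replicate 1 or 2 of AML2 with JQ1 or OTX015 (adjusted p 0.0560 to 0.135). It was also lost under RLE scaling (0.0505), total tag scaling (0.158), no filter (0.0765) and DESeq2 (0.0833). Total tag scaling also ended the JQ1 calls of CDT1 (0.0858), MCM2 (0.0762), RRM1 (0.0848) and FEN1 (0.0707). Among single libraries, the CDT1 call was lost without any AML2 vehicle library, AML2 JQ1 replicate 1 or 2, AML3 vehicle replicate 1 or 2 or AML3 JQ1 replicate 1 (0.0531 to 0.113). MCM2 was lost without AML2 vehicle or AML2 JQ1 replicate 1 or 2, AML3 vehicle replicate 1 or AML3 JQ1 replicate 2 (0.0512 to 0.129). RRM1 was lost without AML2 JQ1 replicate 3, AML3 vehicle replicate 2 or AML3 JQ1 replicate 1 (0.0518 to 0.0598). TK1 was lost without AML2 vehicle replicate 2 or AML2 JQ1 replicate 1 (0.0524 and 0.0924), FEN1 without AML2 JQ1 replicate 2 or AML3 JQ1 replicate 1 (0.0539 and 0.0680) and CDC45 without AML2 JQ1 replicate 2 (0.0520). With OTX015, CDT1 was lost without AML2 OTX015 replicate 1 (0.0755).

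**Figure D3:**
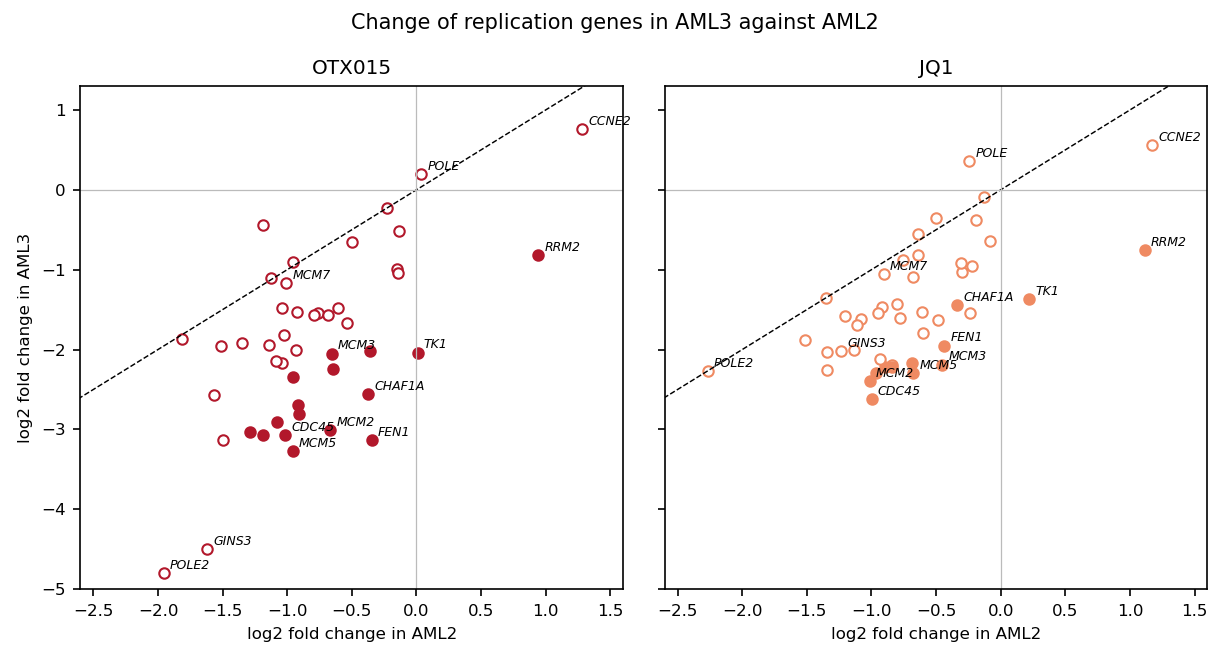
Log2 fold change over vehicle in AML3 (y axis) against AML2 (x axis) for the 46 members tested, with OTX015 (left) and JQ1 (right); filled points passed the test of the difference between the lines and the dashed line marks equal change. Of the 46 points 41 lie below the dashed line in each panel; POLE lies above it in both, and POLE2 with OTX015 is drawn near the end of the axis because it had 0 tags in AML3.

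With vehicle, few replication genes differed between the lines. Between AML3 and AML2, 3 of 46 members were lower and 1 higher, where 11.7% and 11.4% of all genes tested were, and the median member differed by -0.25. TK1 was higher in AML3 (155 ± 18.4 CPM) than in AML2 (61.4 ± 5.25 CPM; SD, n = 3 each), by 1.34 ± 0.28 (adjusted p = 0.000754). RFC4 was lower at 49.8 ± 8.72 CPM in AML3 against 115 ± 18.1 CPM in AML2 (-1.20 ± 0.24, adjusted p = 0.000393), as were POLD2 (-0.84 ± 0.20, 0.0026) and UHRF1 (-0.69 ± 0.20, 0.0114). The UHRF1 call was lost under total tag scaling (adjusted p = 0.0769) and without AML3 vehicle replicate 1 (0.0647). With replicates 1 and 2 alone, 7 members were lower and 2 higher, where 1611 and 1632 of all 10252 genes tested were.

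OTX015 and JQ1, compared with each other within a line as the 1 pair of compounds in the series, gave no member past the threshold. The tool called 0 of 10031 genes in either line (0% as a share of all genes), with 253 genes in AML3 and 331 in AML2 at an unadjusted p under 0.05; DESeq2 called 0 and 1. Among members, 8 in AML3 and 1 in AML2 were under 0.05 before adjustment. The median member was 0.42 lower with OTX015 in AML3 and 0.12 lower in AML2, in log2 units, and the value was below 0 for 40 and 35 of 46. The median of all genes tested was -0.004 in AML3 and 0 in AML2. For MCM5 in AML3 the difference was -0.98 ± 0.33 with a 95% interval of -1.65 to -0.31. CHAF1A differed by -1.11 ± 0.35 (-1.82 to -0.40) and FEN1 by -1.19 ± 0.46 (-2.13 to -0.25); for MCM5, CHAF1A and FEN1 the OTX015 and JQ1 libraries did not overlap in AML3. RRM2 differed by -0.06 ± 0.28 (-0.62 to 0.51) in AML3 and -0.17 ± 0.24 (-0.67 to 0.33) in AML2. The interval included 0 for 38 members in AML3 and 45 in AML2, and lay wholly between -1 and 1 for 19 and 39, so for the others a difference of 1 log2 unit was not excluded in at least 1 direction. Since doses are not given, the values compare these libraries at whatever doses were used.

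Start sites could be followed for most members, because the counts of 46 of them equal the summed counts of 1 or more neighbouring promoters in the promoter table in all 18 libraries; GINS3 could not be matched. These promoters number 105, of which 54 passed the filter, and 15 members use a single one. Of the 54, 45 fell and 3 rose with OTX015 in AML3, where 25.8% and 28.4% of all promoters did, and 44 and 2 with JQ1 (23.8% and 26.5%). In AML2, 30 fell and 4 rose with OTX015 (20% and 20.5%), and 26 and 3 with JQ1 (18.1% and 17.1%). The difference between the lines passed at 17 promoters with OTX015 and 11 with JQ1, all lower in AML3. Of all promoters 4.16% and 3.3% were lower. On replicates 1 and 2 alone the JQ1 count was 17, and the count over all promoters in that setting is not given here.

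MCM7 was the member in which start sites of the same gene moved in opposite directions; it falls outside the rule for named genes and was singled out after its values were seen. Of its 6 promoters, all on the minus strand, 3 were tested, at chr7:99698956-99699038, chr7:99698338-99698385 and chr7:99698137-99698170 in the hg19 coordinates of their names. The first is the main start, and the other two lie 653 and 868 bases downstream of it. RefSeq also annotates 3 MCM7 starts, at 100101397, 100100754 and 100100529 on chromosome 7 of GRCh38.p14, which are 643 and 868 bases apart from the first; the builds differ and only these spacings were compared. The 30 bases before each RefSeq start are given to show how the sites differ, with E2F-type letters in capitals.
MCM7 start 1 (chr7:100101398-100101427, minus strand): ccggtcacgtggggggcgacgTTTCGCGCc
MCM7 start 2 (chr7:100100755-100100784, minus strand): cggaagtggcgcgaggaggctggagggagt
MCM7 start 3 (chr7:100100530-100100559, minus strand): tggaatccgggcccatgtgcttctttgttt
The stretch before start 1 holds 1 E2F-type match and those before starts 2 and 3 hold none.

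The main MCM7 start had 18.9, 25.8 and 20.00 CPM with OTX015 and 30.7, 41.8 and 16.7 CPM with JQ1, against 152, 163 and 142 CPM with vehicle in AML3. Its levels in AML2 were 61.2, 60.5 and 40.5 CPM with OTX015 and 83.7, 57.8 and 60.4 CPM with JQ1, against 138, 114 and 189 CPM with vehicle. It was below vehicle in every treated library and fell, with changes of -2.80 ± 0.29 with OTX015 (adjusted p = 1.68e-08) and -2.29 ± 0.27 with JQ1 in AML3 and of -1.40 ± 0.26 and -1.11 ± 0.25 in AML2, which is within the range of the other ring subunits in AML3 and beyond it in AML2. The start 653 bases downstream had 21.2, 15.7 and 31.1 CPM with OTX015 and 12.7, 12.9 and 26.01 CPM with JQ1, against 2.40, 0.884 and 2.86 CPM with vehicle in AML3. In AML2 it had 5.89, 7.80 and 19.2 CPM with OTX015 and 3.44, 4.45 and 8.89 CPM with JQ1, against 0, 1.12 and 2.61 CPM with vehicle. It rose by 3.35 ± 0.57 (adjusted p = 2.14e-05) and 2.92 ± 0.59 in AML3 and by 3.01 ± 0.72 (0.0014) and 2.11 ± 0.80 (0.0395) in AML2, with every treated library above every vehicle library. The start 868 bases downstream had 23.4, 16.8 and 20.00 CPM with OTX015 and 24.4, 26.8 and 24.2 CPM with JQ1, against 1.80, 0 and 1.43 CPM with vehicle in AML3. Levels in AML2 were 5.89, 3.90 and 2.13 CPM with OTX015 and 0, 4.45 and 7.11 CPM with JQ1, against 0.870, 0.561 and 1.31 CPM with vehicle, where JQ1 libraries overlapped with vehicle. It rose by 3.99 ± 0.60 (4.51e-06) and 4.32 ± 0.58 (9.14e-07) in AML3 and by 2.20 ± 0.85 (0.0381) with OTX015 in AML2; with JQ1 in AML2, 1.95 ± 0.87 did not pass (0.0803).

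The main start held 31.0% of MCM7 tags with OTX015 and 41.8% with JQ1 in AML3, against 95.7% with vehicle. In AML2 it held 76.9% with OTX015 and 86.9% with JQ1, against 97.9% with vehicle. The gene total of MCM7 therefore fell less in AML3 than its main start did. The downstream starts rest on few tags, 47, 40 and 7 with OTX015, JQ1 and vehicle in AML3 at the nearer one and 45, 65 and 4 at the farther one. With replicates 1 and 2 alone the AML3 rises were 3.28 and 2.77 at the nearer start and 4.09 and 4.45 at the farther one, all past the threshold. The difference between the lines passed at the main start with OTX015 (-1.40 ± 0.39, adjusted p = 0.0282) but not with JQ1 (-1.18 ± 0.37, 0.0565). No test set one start's change against another's.

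**Figure D4:**
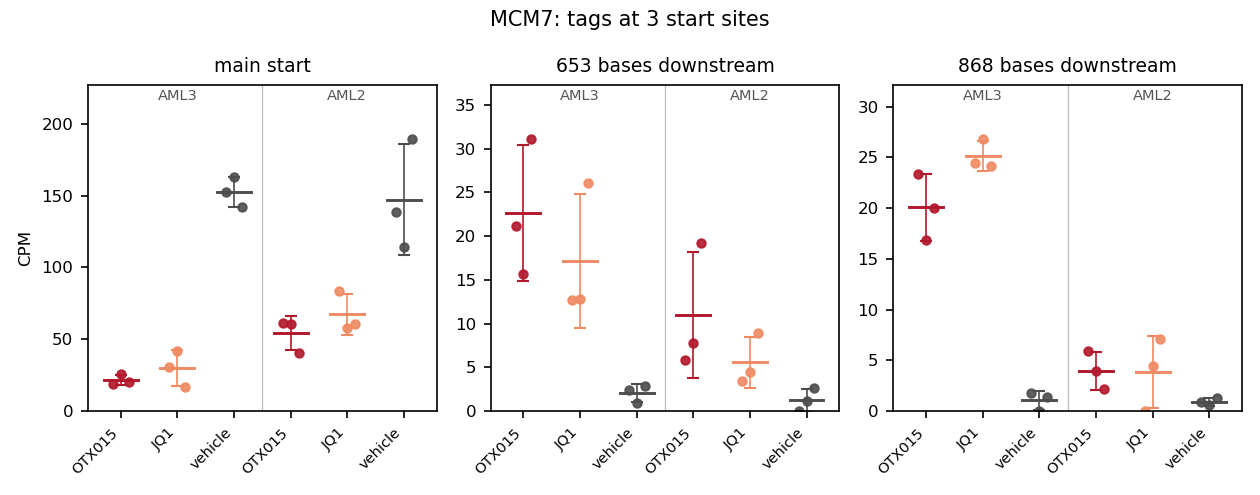
CPM (y axis, a separate scale in each panel) at the main MCM7 start and at the starts 653 and 868 bases downstream in each of the 18 libraries, by group, with the mean (line) and SD (bar) of 3 libraries. In AML3 the main start drops to 16.7 to 41.8 CPM in treated libraries while both downstream starts, at most 2.86 CPM with vehicle, reach 12.7 to 31.1 CPM.

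LIG1, also outside the rule for named genes, was another of the 9 members with 2 or more tested promoters. Its 2 tested promoters lie next to each other (chr19:48673580-48673630 and chr19:48673552-48673578 in hg19, minus strand). The first fell in all 4 comparisons (-1.59 ± 0.34 and -1.70 ± 0.33 in AML3, -1.28 ± 0.31 and -1.15 ± 0.29 in AML2). The second passed in none, with values of -0.31 ± 0.46, -0.82 ± 0.47, -0.83 ± 0.40 and -0.43 ± 0.37 in the same order. It rests on few tags, 18, 15 and 37 with OTX015, JQ1 and vehicle in AML3 and 24, 34 and 68 in AML2. With OTX015 in AML3 replicates 1, 2 and 3 held 4.46, 5.61 and 20.0 CPM at it, against 12.6, 8.84 and 8.59 CPM with vehicle. The difference between the promoters was not tested.

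RefSeq windows of 250 bases before to 50 after a start were found for 40 of the 47 members. Of these members 19 hold the E2F-type letters, 47.5%; by window the share is 20 of 51, 39.2%, against 3.31% of all 35116 windows. CCAAT occurs in 58.8% of member windows against 34.6% of all. Another set of letters searched, TTTGAA or TTCGAA, went the other way, in 3.92% of member windows against 16.4% of all. Members with the E2F-type letters changed by a median of -2.02 with OTX015 and -1.79 with JQ1 in AML3 and by -0.93 and -0.84 in AML2 (n = 19). Those tested without the letters changed by -1.77, -1.41, -0.72 and -0.66 in the same order (n = 20). These medians are a description and were not tested.

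Of 45 further replication genes, such as other subunits and nucleases, 24 fell and 3 rose with OTX015 and 23 and 3 with JQ1 in AML3, and 17 and 1 with OTX015 and 11 and 3 with JQ1 in AML2. Those that fell were 53.3% and 51.1% of the list in AML3, beside 26.1% and 24.1% of all genes, and 37.8% and 24.4% in AML2, beside 19.9% and 17.4%. POLE3, an accessory subunit of polymerase epsilon, changed by -2.01 ± 0.24 and -1.65 ± 0.22 in AML3 and -1.06 ± 0.22 and -0.96 ± 0.21 in AML2. DCTPP1, which degrades non-canonical deoxynucleotides, fell in both lines (-2.55 ± 0.31, -2.04 ± 0.28, -2.13 ± 0.26 and -1.996 ± 0.26). RNASEH2B, a subunit of the nuclease that removes ribonucleotides from DNA, changed by -1.04 ± 0.26 and -0.74 ± 0.25 in AML3 and -1.71 ± 0.24 and -1.45 ± 0.23 in AML2. DTL, the adaptor through which CDT1 is degraded in S phase, fell in AML3 (-2.71 ± 0.40 and -1.76 ± 0.34) and with OTX015 in AML2 (-0.85 ± 0.29), and changed by -0.55 ± 0.28 with JQ1, which did not pass.

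Of 29 G1 to S control genes tested, 12 fell and 4 rose with OTX015 and 11 and 4 with JQ1 in AML3, and 10 and 5 with OTX015 and 8 and 5 with JQ1 in AML2. The share that fell was 41.4% with OTX015 and 37.9% with JQ1 in AML3 (all genes: 26.1% and 24.1%) and 34.5% and 27.6% in AML2 (all genes: 19.9% and 17.4%). The share that rose was 13.8% with each compound in AML3 (all genes: 28.8% and 26.8%) and 17.2% in AML2 (all genes: 20.5% and 17.2%). MYC, a growth regulator known to respond to BET inhibitors, had 68.8, 99.7 and 60.3 CPM with OTX015 and 65.8, 65.5 and 77.6 CPM with JQ1, against 182, 209 and 183 CPM with vehicle in AML3. MYC in AML2 had 50.2, 41.6 and 58.95 CPM with OTX015 and 52.5, 62.6 and 84.7 CPM with JQ1, against 406, 447 and 464 CPM with vehicle. MYC fell, with changes of -1.31 ± 0.23 and -1.47 ± 0.24 in AML3 and -3.15 ± 0.25 and -2.74 ± 0.24 in AML2; the change in AML3 minus that in AML2 was 1.84 ± 0.34 with OTX015 and 1.27 ± 0.33 with JQ1, a smaller fall in AML3 (adjusted p = 0.000737 and 0.0166). CCNA2, the S-phase cyclin, fell, with changes of -3.45 ± 0.33 and -2.28 ± 0.28 in AML3 and -1.57 ± 0.24 and -0.90 ± 0.23 in AML2. CDK4, a G1 kinase, fell, with changes of -2.14 ± 0.23 and -2.10 ± 0.23 in AML3 and -1.90 ± 0.23 and -1.63 ± 0.22 in AML2. CKS1B, a kinase subunit, fell, with changes of -2.55 ± 0.28 and -1.86 ± 0.27 in AML3 and -1.21 ± 0.27 and -1.23 ± 0.27 in AML2.

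CDKN1A, the kinase inhibitor p21, averaged 213 ± 62.2 CPM with OTX015, 225 ± 90.8 CPM with JQ1 and 94.4 ± 9.32 CPM with vehicle in AML3 and 366 ± 236 CPM with OTX015, 278 ± 243 CPM with JQ1 and 82.2 ± 78.2 CPM with vehicle in AML2 (SD, n = 3 each). It rose in AML2 (2.20 ± 0.54 and 1.80 ± 0.54) and did not pass in AML3 (1.15 ± 0.53 and 1.24 ± 0.52); replicate 3 held the highest CDKN1A level in 5 of the 6 groups. RB1, the pocket protein that restrains E2F, averaged 46.4 ± 9.44 CPM with OTX015, 35.4 ± 3.08 CPM with JQ1 and 32.6 ± 12.9 CPM with vehicle in AML3 and 38.3 ± 5.25 CPM with OTX015, 48.8 ± 5.02 CPM with JQ1 and 41.1 ± 11.4 CPM with vehicle in AML2. E2F2, another E2F factor, had 0, 0.649 and 2.01 CPM on average with OTX015, JQ1 and vehicle in AML3 and averaged 8.16 ± 4.02 CPM with OTX015, 4.25 ± 2.17 CPM with JQ1 and 4.72 ± 1.86 CPM with vehicle in AML2.

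Of 20 replication checkpoint genes, 15 fell and 2 rose with OTX015 and 11 and 2 with JQ1 in AML3, and 2 and 1 with OTX015 and 4 and 1 with JQ1 in AML2. In AML3, 75% fell with OTX015 and 55% with JQ1, beside 26.1% and 24.1% of all genes. In AML2 it was 10% with OTX015 and 20% with JQ1, beside 19.9% and 17.4% of all genes, so near or under the background. EXO1, a nuclease, fell, with changes of -2.82 ± 0.36 and -1.82 ± 0.31 in AML3 and -0.90 ± 0.25 and -0.84 ± 0.24 in AML2. BRCA1, a repair factor at stalled forks, fell in AML3 (-3.06 ± 0.40 and -1.999 ± 0.34) and did not pass in AML2 (-0.19 ± 0.30 and -0.37 ± 0.30). FANCD2, of the crosslink repair pathway, changed by -2.61 ± 0.35 and -1.77 ± 0.31 in AML3 and -0.75 ± 0.30, not passing, and -0.88 ± 0.30 in AML2. Genes known to report BET inhibition moved in every comparison: HEXIM1 rose by 4.69 ± 0.52 and 4.57 ± 0.51 in AML3 and 4.25 ± 0.51 and 3.16 ± 0.51 in AML2. SERPINI1 rose by 4.76 ± 0.54 and 4.78 ± 0.53 in AML3 and 3.71 ± 0.47 and 3.40 ± 0.48 in AML2. BRD2, a BET protein itself, rose by 0.83 to 1.07 across the 4 comparisons.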

How the data were processed

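CAGE tags of 18 libraries were analysed, 3 in each of 6 groups named by the titles and treatment labels. The deposited tables of the authors hold counts, whole numbers of tags per gene symbol or promoter that were not normalized, and levels in CPM were computed from them. STAR and hg38 are named in the submitters' processing notes, while most promoter names carry hg19 coordinates; the sources used here do not give the counting tool, the treatment of duplicates or versions. Library sizes ran from 303883 to 2163106 gene tags, replicate 3 being the shallowest of each group. Replicates differed by 1.91 to 11.9 times the counting noise (chi-square per degree of freedom), so no library was a copy. In AML3 the pairs with replicate 3 differed by 5.18 to 11.9 and replicates 1 and 2 by 1.91 to 3.18. In AML2 these ranges were 5.39 to 8.81 and 2.42 to 6.56. Intervals and floors from tags cover counting error only.

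edgeR 4.0.16 in R 4.3.3 fitted quasi-likelihood models with 1 mean per group to all 18 libraries (12 residual degrees of freedom), after filterByExpr over the 6 groups and TMM scaling (factors 0.769 to 1.554), and the SE is the log2 change divided by the root of the F statistic. Two-sided p-values were Benjamini-Hochberg adjusted over 10031 genes or 12867 promoters. On counts simulated with 1 dispersion for all genes, the test recovered most genes changed by 2 log2 units. The changed genes were all above the median level, so genes below it were not covered. Recovery of changes of 1 log2 unit is not given here. Each compound was compared with vehicle and the compounds with each other within a line, AML3 was compared with AML2 under vehicle, and interactions tested whether a compound's effect differed by line. Promoters were assigned to a member where a run of neighbours summed to its counts in every library, a choice made after seeing the data. Members and gene lists were chosen with earlier results of these data known. The rule for named genes took, by role, the members with the largest mean change, those that rose, those leading the other comparisons and those called in none, and up to 4 genes of each further list besides MYC, HEXIM1, SERPINI1, CDKN1A, RB1 and E2F2. Among members outside it, MCM4, MCM7, CDC6, GINS4, PCNA, RFC1 and LIG1 are given with values as well. Replicate numbers were shared by all groups. Deviations of same-numbered libraries correlated at 0.12 to 0.35 in AML2 and 0.35 to 0.62 in AML3 for OTX015 against JQ1, so those numbers pair libraries, and the blocked fit called 0 members as well; in the other comparisons, and among the 4 groups of each interaction, at least 1 pair was under 0.1. Alternatives were other scalings (RLE, upper quartile, total tags), no filter, DESeq2 1.42.0, the 2 groups compared alone, a replicate block, replicates 1 and 2 alone, and leaving out each library. Enhancer counts were not used.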

Additional observations from a re-analysis of the deposited data

Results flagged for a closer look

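The change of a member in AML3 minus its change in AML2 passed edgeR's test of the difference itself for 16 members with OTX015 and 12 with JQ1, and each was lower in AML3. Values are differences of log2 fold changes. With OTX015 they were FEN1 (-2.79), MCM2 (-2.34), MCM5 (-2.31), CHAF1A (-2.18), CDC45 (-2.05), TK1 (-2.05), MCM6 (-1.90), PRIM1 (-1.88), RRM1 (-1.83), CDT1 (-1.78), RRM2 (-1.76), GINS2 (-1.75), CDC6 (-1.67), TYMS (-1.59), MCM3 (-1.40) and MCM4 (-1.39). With JQ1 they were RRM2 (-1.87), MCM3 (-1.74), CDC45 (-1.62), MCM5 (-1.62), TK1 (-1.59), FEN1 (-1.51), CDT1 (-1.48), MCM2 (-1.38), MCM6 (-1.37), RRM1 (-1.34), GINS2 (-1.32) and CHAF1A (-1.11). Adjusted p-values ran from 0.000118 (MCM5) to 0.0448 (MCM4) with OTX015 and from 0.00106 (MCM3) to 0.0481 (CHAF1A) with JQ1. Both sets of differences use the same vehicle libraries. The summed myeloid markers also changed more in AML3 (532 to 682 CPM with OTX015, 552 to 714 CPM with JQ1, 4328 to 5748 CPM with vehicle) than in AML2, and their part in these differences was not tested.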

How the results depend on the processing

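Of the alternatives run on the log2 changes of the named members, 5627 stayed on the same side of the threshold, 104 lost the call and 55 gained one. None changed sign where the main fit or the alternative passed. Signs of changes that passed in neither were not compared. Counts of members called were within 1.5 times the main count, with these exceptions. Total tag scaling called 6 members for the JQ1 difference between the lines (main 12), as did leaving out AML2 JQ1 replicate 2. Leaving out AML2 JQ1 replicate 1 or AML2 vehicle replicate 2 called 7 for that difference. Counts over all genes with a library left out are not given here. Replicates 1 and 2 alone called 25 for the OTX015 difference (main 16), 9 between the lines with vehicle (main 4) and 17 promoters for the JQ1 difference (main 11). Over all genes that setting also called more as lower for the OTX015 difference, 918 of 10252 (main 482 of 10031). Its count over all promoters is not given here. The same numbers share no stated animal, culture or day; with a replicate block, 7 members were called between the lines with vehicle, and blocking moved no other count of members by over 1.5 times. For the differences between the lines the block called 19 members with OTX015 (main 16) and 16 with JQ1 (main 12). Those added include RPA3 (adjusted p 0.0298) and UHRF1 (0.0400) with OTX015 and PRIM1 (0.0331) and TYMS (0.0211) with JQ1. Counts over all genes with the block are not given here, so these gains cannot be told apart from a general gain in calls. Summed member levels moved by more than the spread between replicates under total tag scaling in 3 groups, AML3 with OTX015 (1394 CPM), AML3 with vehicle (3272 CPM) and AML2 with vehicle (3384 CPM). Leaving out 1 library at a time gave 39 to 42 members called with OTX015 and 37 to 41 with JQ1 in AML3, 27 to 34 and 21 to 30 in AML2, 0 for OTX015 against JQ1 in either line, 3 to 6 between the lines with vehicle, and 13 to 18 (OTX015) and 6 to 16 (JQ1) for the differences between the lines. Depth limits the low members: POLE2 and GINS3 rest on 34 and 45 tags with vehicle in AML3, CCNE1 was not tested, and the downstream MCM7 starts hold 45 to 65 tags per treated AML3 group except 40 at 1 of them.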
